A study of Homo sapiens with 6 samples.

Results

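The tumour necrosis factor (TNF) ligand and receptor superfamilies were followed in the human glioma cell line U251 through all genes whose symbol starts with TNFSF or TNFRSF. The files listed 28 such genes among 16832 gene symbols, 9 with a TNFSF symbol for ligands and 19 with a TNFRSF symbol for receptors. Of the 28 genes, 13 had an FPKM (the fragment count of a gene scaled by transcript length and library depth) of at least 1 in 3 or more libraries and were tested; the other 15 are listed with their fragment numbers. Cells labelled wild type gave 3 libraries after 18 days of SLCDS treatment, a small-molecule combination not broken down in the labels. In the other 3 libraries, the control, wild-type U251 cells had received PBS without it, and the labels give no culture time for them. The title of the series speaks of neuronal-like cells, and the comparison addresses how these genes differ between treated and untreated U251. The labels do not say whether the libraries of a group came from separate cultures, so the p-values measure the spread between these libraries, which may be technical.

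TNF superfamily ligands are mostly trimeric proteins of the cell surface, many of which can also be shed, and their receptors carry cysteine-rich repeats outside the cell. Receptors with an intracellular death domain can recruit FADD or TRADD and, through them, caspases. Others bind TRAF adaptors and lead to NF-kB and JNK signalling, and decoy receptors bind a ligand without passing on a death signal. In glioma cells the family is known mainly for the TRAIL death receptors and for TNFRSF12A, the receptor of the cytokine TWEAK, which is linked to invasion.

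The libraries held about 16300000 to 17200000 fragments each, as read from the steps between FPKM values. Control replicate 3 stood apart. Taken over genes, which are no independent replicates, SLCDS libraries had pairwise Pearson correlations of 0.9966 to 0.9970 and control replicates 1 and 2 one of 0.9969, while control replicate 3 reached 0.9765 and 0.9767 with its fellow controls. Control replicates 1 and 2 correlated better with the SLCDS libraries (0.9839 to 0.9862) than with control replicate 3. The FPKM sum was 301736 to 310281 in SLCDS libraries, and in control libraries it was 348904 in replicate 3 and 295203 and 296125 in the others. Glioma and astroglial genes were present, with VIM averaging 1524 FPKM in SLCDS and 1507 FPKM in control and GFAP averaging 135 FPKM in SLCDS and 339 FPKM in control, while AQP4 reached at most 0.243 FPKM in any library. Of 8 T and B lymphocyte markers all lay under 1 FPKM in every library, and their summed level was 0.435 to 0.827 FPKM in SLCDS and 0.175 to 0.598 FPKM in control.

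Across the family, 5 of the 13 tested genes were higher in SLCDS, 1 was lower and 7 did not pass the test (limma on log2(FPKM + 1), Benjamini-Hochberg adjusted p under 0.05 over all 11506 genes tested). The 5 risers were the receptor genes TNFRSF21, TNFRSF12A, TNFRSF19, TNFRSF14 and TNFRSF10B, and the gene that fell was the receptor gene TNFRSF25. Both tested ligands, TNFSF10 and TNFSF12, missed the threshold. Over all genes tested the same rule called 6.09%, with 4.28% higher and 1.82% lower. By limma-voom on the recovered fragments, a choice made after the data were seen, the same 5 rose and the same 1 fell, where 6.14% of all genes passed (4.33% higher, 1.81% lower). With each library's trend over length and GC content taken out, also chosen after the data were seen, these 6 passed again, against 17.4% of all genes (10.4% higher, 7% lower). Without control replicate 3, 7 of the 13 genes were higher and 2 lower, against 27.7% of all genes (16% higher, 11.8% lower). The median log2 fold change was 0.25 over the 13 genes and 0.00 over all genes tested. Unless limma-voom is named, log2 fold changes here are differences of log2(FPKM + 1), which understate the change of low genes. FPKM ranges of SLCDS and control did not overlap for 9 of the 13 genes, 7 of them higher and 2 lower in SLCDS, against 29.1% of all genes tested. Of these, TNFRSF13C had to lie apart, since it met the filter only through its SLCDS libraries. In bulk RNA, fewer cells of a kind and less RNA per cell cannot be told apart.

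**Figure D1:**
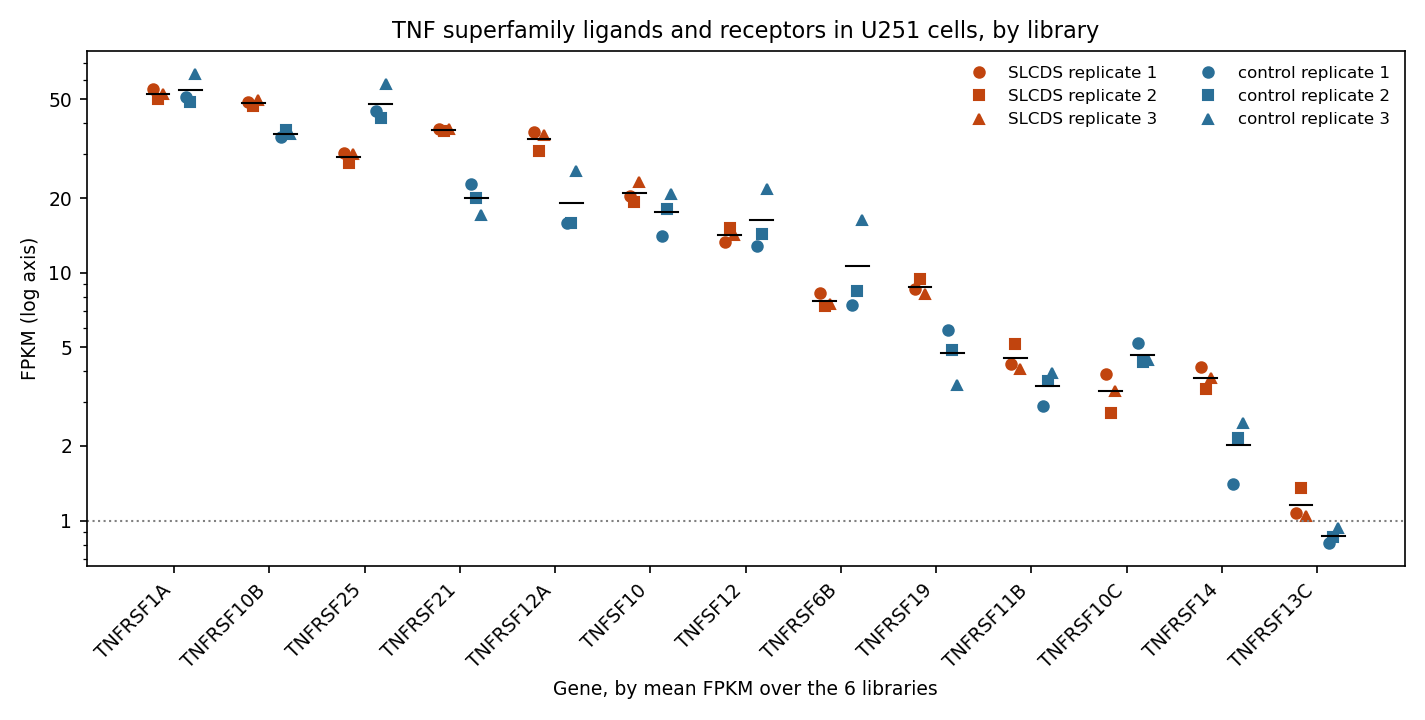
FPKM (log axis) of the 13 tested genes in each library, with the 3 SLCDS libraries left of the 3 control libraries, a marker shape for each replicate number, bars for group means and a dotted line at 1 FPKM. The SLCDS points of TNFRSF21, TNFRSF12A, TNFRSF19, TNFRSF14 and TNFRSF10B lie above all control points, those of TNFRSF25 lie below them, and control replicate 3 is the highest control for, among others, TNFRSF1A, TNFRSF25, TNFRSF12A, TNFSF12 and TNFRSF6B.

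Among the death-domain receptors, TNFRSF21 (death receptor 6, known from studies of axon pruning and of oligodendrocyte maturation) rose. It stood at 38.1, 37.2 and 37.9 FPKM in SLCDS replicates 1 to 3, against 22.8, 20.1 and 17.1 FPKM in control replicates 1 to 3. The 3 SLCDS libraries lay close together, and each was above every control. The mean was 37.7 ± 0.435 FPKM in SLCDS and 19.97 ± 2.84 FPKM in control (SD, n = 3 each), a ratio of 1.89. The log2 fold change was 0.89 (SE 0.10; limma, adjusted p = 0.00353). TNFRSF21 passed the threshold in each of the 18 other settings run, with adjusted p values of 6.1e-06 to 0.0324.

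TNFRSF10B, the gene of the TRAIL receptor DR5, which is induced by p53 and by endoplasmic reticulum stress, rose less. It stood at 48.9, 46.8 and 49.5 FPKM in SLCDS and 35.4, 37.5 and 36.1 FPKM in control. The groups did not overlap, and the replicates of each group were within a few FPKM of each other. The mean was 48.4 ± 1.40 FPKM in SLCDS and 36.3 ± 1.046 FPKM in control (SD, n = 3 each), a ratio of 1.33 (log2 fold change 0.40, SE 0.06) with limma's adjusted p at 0.0132. The adjusted p was 0.0968, 0.0756 and 0.0964 without SLCDS replicates 1, 2 and 3 and 0.0579 without control replicate 1, while the log2 fold change stayed between 0.39 and 0.43.

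TNFRSF25 encodes death receptor 3, the receptor of the ligand TNFSF15, and is best known from T cells. It fell to 30.3, 27.6 and 30.1 FPKM in SLCDS, against 44.7, 42.1 and 57.6 FPKM in control. All SLCDS libraries were below all controls, and control replicate 3 was the highest. The mean was 29.4 ± 1.496 FPKM in SLCDS and 48.1 ± 8.27 FPKM in control (SD, n = 3 each), a ratio of 0.610 (log2 fold change -0.68, SE 0.12; limma, adjusted p = 0.0199). Without SLCDS replicates 1, 2 and 3 the adjusted p was 0.094, 0.108 and 0.0909, and without control replicate 3 it was 4.75e-05 with a log2 fold change of -0.55.

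In the GENCODE release 29 annotation TNFRSF25 shares 104 of its 4283 exon bases (2.43%) with PLEKHG5, a neighbouring gene on the same strand, and 383 (8.94%) with ESPN on the other strand. PLEKHG5 fell as well, to 26.4, 28.6 and 28.1 FPKM in SLCDS against 42.4, 41.7 and 33.2 FPKM in control (log2 fold change -0.47, SE 0.11; limma, adjusted p = 0.0449). In control replicate 3 TNFRSF25 was at its highest and PLEKHG5 at its lowest among the controls. The ratio of TNFRSF25 to PLEKHG5 was 1.15, 0.966 and 1.07 in SLCDS and 1.06, 1.01 and 1.74 in control, so these ranges overlapped (two-sided exact permutation test, p = 0.7). How fragments of bases shared with PLEKHG5 or ESPN were assigned, and whether strand was used, is not given in the sources used here.

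TNFRSF1A encodes the main receptor of TNF itself and was the most abundant of the 28 genes. It stood at 55.2, 50.3 and 52.4 FPKM in SLCDS and 51.3, 48.9 and 63.2 FPKM in control. The groups overlapped, and the value furthest from the rest was control replicate 3. The log2 fold change was -0.04 (95% interval -0.29 to 0.21; limma, adjusted p = 0.882), and without control replicate 3 it was 0.07, so no direction can be given.

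The TRAF-coupled receptors held the other risers. TNFRSF12A, also called Fn14, is a small receptor induced by growth factors and injury that binds the ligand TNFSF12. Its values were 36.9, 31.0 and 35.8 FPKM in SLCDS, against 15.8, 15.9 and 25.8 FPKM in control. Control replicates 1 and 2 were almost equal and control replicate 3 lay between them and the SLCDS libraries. The mean was 34.6 ± 3.11 FPKM in SLCDS and 19.2 ± 5.75 FPKM in control (SD, n = 3 each), a ratio of 1.80 (log2 fold change 0.85, SE 0.19) with limma's adjusted p at 0.042. The call did not hold without SLCDS replicates 1, 2 or 3 (adjusted p 0.189, 0.115 and 0.171) or control replicates 1 or 2 (0.121 and 0.126), and the adjusted p was 0.0674 with no filter and 0.0627 where a mean FPKM of 5 or more was asked for. Without control replicate 3 the log2 fold change was 1.07 (limma, adjusted p = 3.6e-06).

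TNFRSF19, also called TROY, is a receptor of the developing nervous system that takes part in the Nogo receptor complex and has been linked to glioma cell migration. It stood at 8.62, 9.42 and 8.24 FPKM in SLCDS and 5.87, 4.88 and 3.52 FPKM in control. The SLCDS libraries were all above the controls, of which replicate 3 was the lowest. The mean was 8.76 ± 0.601 FPKM in SLCDS and 4.76 ± 1.18 FPKM in control (SD, n = 3 each), a ratio of 1.84 (log2 fold change 0.78, SE 0.15) with limma's adjusted p at 0.0268. The adjusted p was 0.123, 0.131 and 0.1 without SLCDS replicates 1, 2 and 3, 0.0755 without control replicate 2, and 0.07 with each library scaled to the same FPKM sum.

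TNFRSF14, the herpesvirus entry mediator HVEM, binds the ligand TNFSF14 and the lymphocyte receptor BTLA. It stood at 4.17, 3.40 and 3.75 FPKM in SLCDS and 1.41, 2.16 and 2.47 FPKM in control. That is 208, 167 and 191 fragments in SLCDS and 68, 104 and 124 fragments in control, and the groups did not overlap on either scale. The mean was 3.77 ± 0.384 FPKM in SLCDS and 2.01 ± 0.544 FPKM in control (SD, n = 3 each), a ratio of 1.88 (log2 fold change 0.68, SE 0.14; limma, adjusted p = 0.0383). By limma-voom the log2 fold change was 0.93.

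TNFRSF14 passed in 9 of 17 other settings, against 11 to 18 of 18 for the other 5 genes. The adjusted p was 0.179, 0.109 and 0.151 without SLCDS replicates 1, 2 and 3, 0.0581 and 0.0853 without control replicates 1 and 2, 0.0645 with no filter and 0.0678 with quantile normalization. An antisense gene, TNFRSF14-AS1, covers 831 of its 6219 exon bases (13.4%) in GENCODE release 29. Whether the counting used strand is not given, so fragments of the 2 genes cannot be told apart there.

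TNFRSF13C, the receptor of the B cell survival factor BAFF, was the gene just inside the filter. It passed only through the SLCDS libraries, at 1.08, 1.35 and 1.04 FPKM, against 0.814, 0.862 and 0.932 FPKM in control. Its log2 fold change was 0.20 (SE 0.08; limma, adjusted p = 0.256). Just outside the filter was the ligand gene TNFSF13, with 1.15, 0.793 and 0.612 FPKM in SLCDS and 1.22, 0.807 and 0.619 FPKM in control.

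Of 4 decoy receptor genes 3 were tested, and 0 of these 3 passed over all libraries in limma or by limma-voom (2 at an unadjusted p under 0.05). TNFRSF10C, which binds TRAIL without a death domain, was at 3.92, 2.73 and 3.34 FPKM in SLCDS and 5.19, 4.36 and 4.44 FPKM in control. Every SLCDS library was below every control (log2 fold change -0.39, 95% interval -0.68 to -0.11; limma, adjusted p = 0.126), and without control replicate 3 the adjusted p was 0.0206. The 4 TRAIL receptor genes TNFRSF10A to TNFRSF10D are close paralogs, and how fragments that fit several of them were counted is not given, so their split is uncertain. TNFRSF11B, or osteoprotegerin, which captures RANKL and also binds TRAIL, was at 4.30, 5.15 and 4.08 FPKM in SLCDS and 2.91, 3.65 and 3.96 FPKM in control. The lowest SLCDS value lay just above the highest control (log2 fold change 0.29, 95% interval 0.01 to 0.57; limma, adjusted p = 0.248), and without control replicate 3 the adjusted p was 0.0247.

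TNFRSF6B, the secreted decoy DcR3 for Fas ligand, TNFSF14 and TNFSF15, was at 8.29, 7.36 and 7.46 FPKM in SLCDS and 7.38, 8.41 and 16.3 FPKM in control. The high control mean came from replicate 3 alone: the log2 fold change was -0.35 over all libraries (limma, adjusted p = 0.538) and -0.03 without it. All of the 1141 exon bases of TNFRSF6B also belong to the readthrough gene RTEL1-TNFRSF6B in GENCODE release 29, so part of its fragments could come from that transcript.

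**Figure D2:**
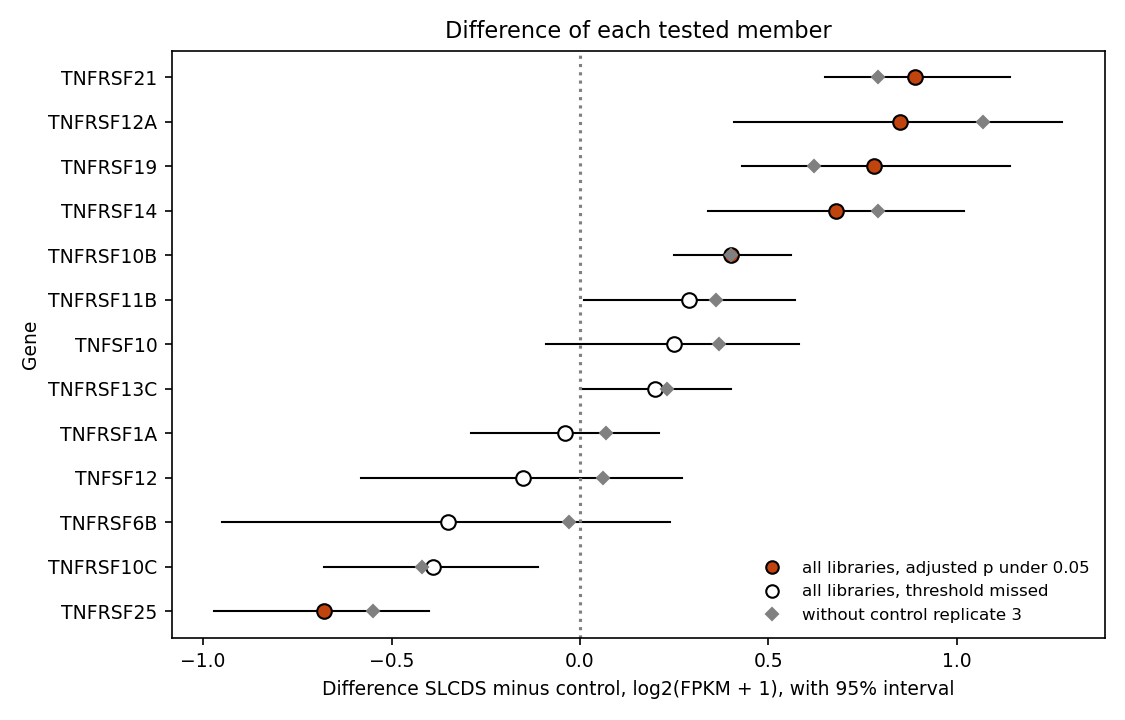
Difference SLCDS minus control on the log2(FPKM + 1) scale for the 13 tested genes (circles, with 95% intervals from limma over all 6 libraries), filled where the adjusted p was under 0.05, and the same difference without control replicate 3 (grey diamonds). TNFRSF21 is at the top with 0.89 and TNFRSF25 at the bottom with -0.68, and leaving out control replicate 3 moves TNFRSF12A to 1.07 and TNFRSF6B to -0.03.

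Of the ligands, TNFSF10 and TNFSF12 passed the filter. TNFSF10 encodes TRAIL, which induces apoptosis through TNFRSF10A and TNFRSF10B. It stood at 20.5, 19.2 and 23.2 FPKM in SLCDS and 14.1, 18.0 and 20.9 FPKM in control. Control replicate 3 lay within the SLCDS range (log2 fold change 0.25, 95% interval -0.09 to 0.58; limma, adjusted p = 0.429), and without it the adjusted p was 0.0192. TNFSF12 encodes TWEAK and stood at 13.2, 15.2 and 14.2 FPKM in SLCDS and 12.8, 14.3 and 21.8 FPKM in control. The groups overlapped (log2 fold change -0.15, 95% interval -0.58 to 0.27; limma, adjusted p = 0.724). Of its 1879 exon bases, 553 (29.4%) also belong to the readthrough gene TNFSF12-TNFSF13.

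A ratio of 2 genes within a library does not depend on how that library was scaled. The ratio of TNFRSF12A to its ligand TNFSF12 was 2.78, 2.04 and 2.52 in SLCDS, against 1.24, 1.11 and 1.18 in control. Control replicate 3, in which both genes were high, fell in with the other controls on this measure. The ranges of TNFRSF12A and TNFSF12 already forced these ratios apart, however libraries were matched, so the separation adds no support to the rise of TNFRSF12A. The mean ratio was 2.45 ± 0.377 in SLCDS and 1.18 ± 0.0635 in control (SD, n = 3 each; two-sided exact permutation test, p = 0.1, the smallest that 3 against 3 libraries can give). The ratio of the death receptor gene TNFRSF10B to the decoy gene TNFRSF10C was 12.5, 17.2 and 14.8 in SLCDS and 6.82, 8.59 and 8.14 in control. This ratio had to separate, since TNFRSF10B was higher and TNFRSF10C lower in every SLCDS library, and it adds nothing to those values. For TNFRSF10B over its ligand TNFSF10 the ratios overlapped, at 2.39, 2.44 and 2.14 in SLCDS and 2.51, 2.08 and 1.73 in control (two-sided exact permutation test, p = 0.6). The remaining ratio, TNFRSF6B over RTEL1, the other gene of its readthrough, overlapped as well (two-sided exact permutation test, p = 0.9). It was 0.495, 0.437 and 0.454 in SLCDS and 0.389, 0.452 and 0.914 in control. Adjustment over the 5 ratios computed leaves no p under 0.05, since none can go below 0.1 before it.

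**Figure D3:**
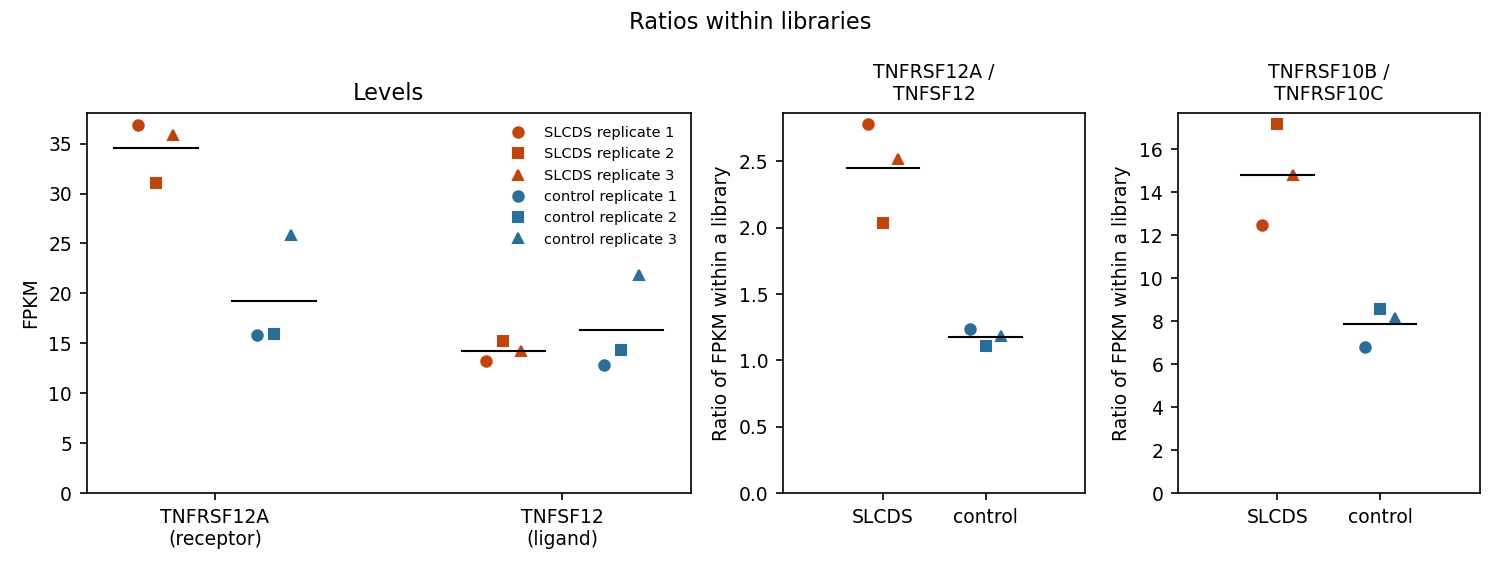
Left, FPKM of TNFRSF12A and its ligand gene TNFSF12 in each library; middle and right, the ratio of FPKM within each library for TNFRSF12A over TNFSF12 and for TNFRSF10B over TNFRSF10C, with SLCDS left of control, a marker shape for each replicate number and bars for group means. The SLCDS ratios of 2.04 to 2.78 lie above the control ratios of 1.11 to 1.24, and those of 12.5 to 17.2 above 6.82 to 8.59. Both separations follow from the ranges of the single genes.

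Promoter sequence was at hand for 4 of the 6 genes that changed, and is shown so that the starts of genes that moved together and of the one that moved the other way can be read side by side. Each window runs from 250 bases before to 50 bases after a gene start in RefSeq (GRCh38.p14) and is written 5′ to 3′ on the gene's strand, with matches to the NF-kB consensus in capitals. TNFRSF19 has 2 annotated starts.
TNFRSF21, chr6:47309856-47310155, minus strand: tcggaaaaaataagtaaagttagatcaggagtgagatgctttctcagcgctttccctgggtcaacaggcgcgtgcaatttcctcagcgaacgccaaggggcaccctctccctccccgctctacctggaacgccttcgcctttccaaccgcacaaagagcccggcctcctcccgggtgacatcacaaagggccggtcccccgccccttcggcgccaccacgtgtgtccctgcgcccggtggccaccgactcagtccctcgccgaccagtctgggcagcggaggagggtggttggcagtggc
TNFRSF19, chr13:23570162-23570461, plus strand: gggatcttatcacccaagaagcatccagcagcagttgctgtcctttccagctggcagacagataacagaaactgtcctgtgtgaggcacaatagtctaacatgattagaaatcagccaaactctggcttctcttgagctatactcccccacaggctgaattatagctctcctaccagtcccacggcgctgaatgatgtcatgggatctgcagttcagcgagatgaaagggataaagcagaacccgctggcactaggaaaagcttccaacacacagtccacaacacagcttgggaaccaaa
TNFRSF19, chr13:23579110-23579409, plus strand: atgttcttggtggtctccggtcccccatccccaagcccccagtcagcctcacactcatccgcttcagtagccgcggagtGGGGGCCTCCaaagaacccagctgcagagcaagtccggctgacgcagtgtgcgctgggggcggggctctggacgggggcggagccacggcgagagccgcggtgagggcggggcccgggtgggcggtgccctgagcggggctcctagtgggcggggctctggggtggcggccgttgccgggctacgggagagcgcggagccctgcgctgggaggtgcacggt
TNFRSF14, chr1:2556121-2556420, plus strand: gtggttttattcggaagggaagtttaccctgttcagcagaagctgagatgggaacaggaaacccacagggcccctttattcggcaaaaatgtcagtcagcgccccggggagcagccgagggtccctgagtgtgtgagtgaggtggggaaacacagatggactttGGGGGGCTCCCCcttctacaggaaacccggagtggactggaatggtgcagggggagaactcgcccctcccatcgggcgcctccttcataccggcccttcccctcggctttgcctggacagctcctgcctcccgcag
TNFRSF25, chr1:6466124-6466423, minus strand: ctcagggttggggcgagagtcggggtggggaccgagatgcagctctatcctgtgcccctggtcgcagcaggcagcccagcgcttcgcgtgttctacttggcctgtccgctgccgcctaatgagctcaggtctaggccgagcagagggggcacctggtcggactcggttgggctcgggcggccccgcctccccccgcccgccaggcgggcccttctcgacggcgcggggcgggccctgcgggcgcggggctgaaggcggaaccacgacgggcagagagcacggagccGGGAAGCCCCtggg

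The windows differed in base composition. GC content was 63.3% for TNFRSF21, 49% and 72.7% for the upstream and downstream starts of TNFRSF19, 60.3% for TNFRSF14 and 73.3% for TNFRSF25, and CpG dinucleotides numbered 23, 4, 27, 12 and 31 in the same order. The NF-kB consensus, searched on both strands, matched in TNFRSF14 (3 overlapping matches in 1 run), at the downstream start of TNFRSF19 and in TNFRSF25, the gene that fell, and had no match in TNFRSF21 or at the upstream start of TNFRSF19. It occurs in 11.3% of all 35116 promoter windows of this length. None of the 5 windows held TGANTCA, the AP-1 motif, which occurs in 7.71% of all windows, or TATAAA, in 11.5%, on either strand. GGGCGG, the GC box, occurs in 45% of all windows and was found 1, 0, 5, 0 and 3 times in the windows as listed. These are matches of letters and not measured sites, and they may overlap.

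The 15 genes under the filter were mostly at or near the limit of detection. Their values could be read as whole numbers of fragments, the smallest whole numbers in the ratio of the 6 depth-corrected values. The ligand gene TNFSF4 (OX40 ligand) had 176, 160 and 120 fragments in SLCDS and 152, 126 and 135 in control. TNFSF13B (BAFF) had 30, 33 and 34 in SLCDS and 30, 20 and 22 in control. TNFSF13 (APRIL) had 37, 25 and 20 in SLCDS and 38, 25 and 20 in control, with 55.5% of its exon bases shared with TNFSF12-TNFSF13. TNFSF18, the ligand of TNFRSF18, had 23, 14 and 12 fragments in SLCDS and 23, 20 and 13 in control. The groups overlapped for each of these 4 ligands. The ligand genes TNFSF15 (2 to 6 fragments per library), TNFSF14 (0 to 3) and TNFSF9 (0 to 1) were hardly seen.

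Among the receptors under the filter, TNFRSF9, the T cell costimulator 4-1BB, had 9, 8 and 11 fragments in SLCDS and 1, 2 and 2 in control. Every SLCDS library was above every control, and the depth-corrected ratio of the summed fragments was 5.49 (exact 95% interval 2.09 to 18.2, counting error only). TNFRSF4 (OX40) had 3, 5 and 4 fragments in SLCDS and 2, 1 and 2 in control, with a ratio of 2.35 (0.771 to 8.52). TNFRSF10A, the other TRAIL death receptor gene, had 1, 1 and 6 fragments in SLCDS and 0 in each control, and the highest value came from SLCDS replicate 3 alone. TNFRSF18 (GITR) had 6, 5 and 11 fragments in SLCDS and 1, 6 and 2 in control; these overlapped. TNFRSF1B, which encodes the other TNF receptor (0 to 4 fragments per library), the decoy gene TNFRSF10D (0 to 2), TNFRSF8 (0 to 3) and TNFRSF17 (0 to 1) had no more than 6 fragments over the 6 libraries. FPKM ranges did not overlap for 4 of the 15 genes, TNFRSF9, TNFRSF4 and TNFRSF10A (higher in SLCDS) and TNFRSF10D (lower). Over all genes under the filter and above 0 in at least 1 library this share was 16.7%. In fragments TNFRSF10D overlapped, with 1, 0 and 1 in SLCDS and 1, 1 and 2 in control, so only the scaling by depth set it apart. TNFRSF10A too rests on single fragments in SLCDS replicates 1 and 2.

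**Figure D4:**
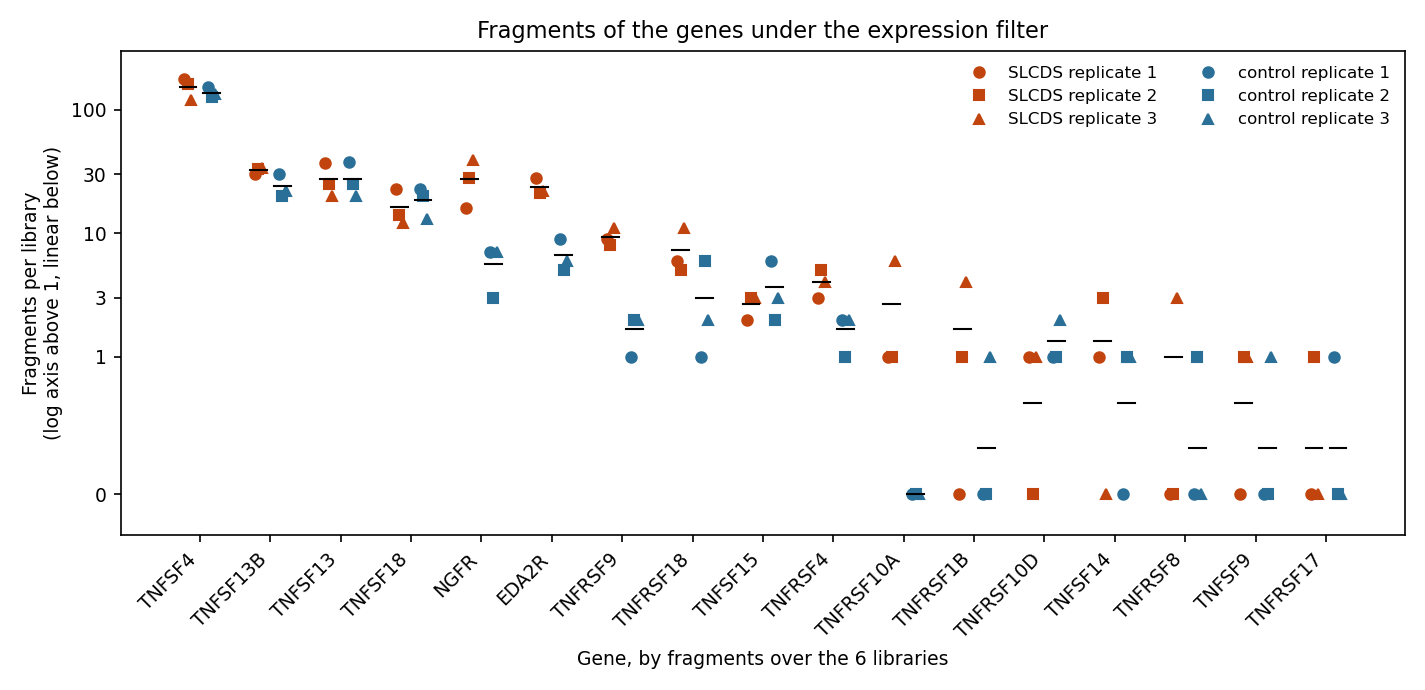
Fragments per library (log axis above 1, linear below) of the 15 TNFSF and TNFRSF genes under the filter and of the receptor genes EDA2R and NGFR, with SLCDS left of control, a marker shape for each replicate number and bars for group means. TNFRSF9 (8 to 11 fragments in SLCDS, 1 to 2 in control), TNFRSF4, TNFRSF10A, NGFR and EDA2R have SLCDS points above all control points. TNFSF4 has the most fragments of these genes.

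Superfamily genes with other symbols were followed as 2 lists. Of 7 ligand genes 1 was tested: CD70, the ligand of CD27, stood at 17.7, 16.5 and 17.3 FPKM in SLCDS and 14.97, 12 and 20.1 FPKM in control (limma, adjusted p = 0.701; 0.0119 without control replicate 3). TNF itself was at most 0.0733 FPKM in every library. Of 8 receptor genes 2 were tested, the lymphotoxin receptor gene LTBR (20.2, 19.8 and 19.3 FPKM in SLCDS; 19.9, 18.6 and 25.5 FPKM in control) and RELT (4.41, 4.07 and 5.01 FPKM in SLCDS; 4.10, 4.02 and 4.43 FPKM in control). Neither passed in limma (0 of 2, and 0 at an unadjusted p under 0.05 or by limma-voom). The Fas gene FAS lay under 1 FPKM in every library.

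The receptor genes NGFR and EDA2R, also under the filter, were singled out after their values were seen. NGFR, the neurotrophin receptor p75, had 16, 28 and 39 fragments in SLCDS and 7, 3 and 7 in control. The depth-corrected ratio was 4.78 (exact 95% interval 2.81 to 8.6, counting error only). EDA2R, the p53-induced ectodysplasin receptor gene, had 28, 21 and 22 fragments in SLCDS and 9, 5 and 6 in control, a ratio of 3.48 (2.09 to 6.03). In both genes the groups did not overlap, as in 16.7% of genes under the filter.

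Downstream of the receptors, most pathway genes did not pass. Among death-domain adaptors and caspases 0 of 9 tested genes passed in limma, 1 did at an unadjusted p under 0.05 and 0 by limma-voom, and the median log2 fold change was 0.11. Leaving out control replicate 3 made 2 of the 9 higher, against 16% of all genes tested. The adaptor gene TRADD stood at 32.8, 29.5 and 33.9 FPKM in SLCDS and 28.2, 29.3 and 46.7 FPKM in control. In the TRAF and ubiquitin arm 0 of 17 passed in limma, 2 did at an unadjusted p under 0.05 and 0 by limma-voom, with a median of 0.08. Without control replicate 3, 4 of the 17 genes of this arm were higher, against 16% of all genes tested. Its most abundant genes were RBCK1 (50.1 FPKM on average in SLCDS and 52.01 FPKM in control) and SHARPIN (31.95 FPKM in SLCDS and 34.97 FPKM in control), both of the linear ubiquitin ligase. Among ligand-processing enzymes 0 of 5 passed in limma, 2 did at an unadjusted p under 0.05 and 0 by limma-voom, with a median of 0.08. Without control replicate 3, 2 of the 5 were higher, FURIN among them (limma, adjusted p = 0.0052), against 16% of all genes tested. Once the trend over length and GC content was taken out 2 passed, against 17.4% of all genes. The proprotein convertase gene FURIN averaged 31.5 FPKM in SLCDS and 26.6 FPKM in control. The TNF sheddase gene ADAM17 averaged 21.04 FPKM in SLCDS and 19.97 FPKM in control.

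Among the IKK and NF-kB factors 1 of 9 fell and 8 did not pass, where 6.09% of all genes tested passed and 1.82% were lower, so a count of 1 is no result about the list. Leaving out control replicate 3 gave 3 higher and 1 lower, against 16% and 11.8% of all genes tested. MAP3K14, which encodes the kinase NIK of the non-canonical NF-kB route, fell to 19.6, 22.5 and 22.3 FPKM in SLCDS, against 28.5, 27.9 and 27.8 FPKM in control (log2 fold change -0.37, SE 0.08; limma, adjusted p = 0.0308). All SLCDS libraries were below all controls. The adjusted p was 0.154, 0.11 and 0.117 without SLCDS replicates 1, 2 and 3, 0.106 and 0.0945 without control replicates 1 and 2, 0.12 with libraries scaled to the same FPKM sum and 0.0542 with the same upper quartile. The NF-kB subunit gene RELA averaged 47.0 FPKM in SLCDS and 48.0 FPKM in control.

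NF-kB feedback and target genes moved in both directions. Of 15 tested genes 5 rose, 1 fell and 9 did not pass, where 4.28% of all genes tested were higher and 1.82% lower, and the median log2 fold change was 0.29. The adhesion molecule gene ICAM1 rose to 4.37, 4.23 and 4.75 FPKM in SLCDS, against 1.055, 1.49 and 1.51 FPKM in control (log2 fold change 1.22, SE 0.10) with limma's adjusted p at 0.000943. By limma-voom its log2 fold change was 1.72. The chemokine gene CXCL8 stood at 1.74, 1.84 and 1.56 FPKM in SLCDS and 0.449, 0.225 and 0.826 FPKM in control. Its log2 fold change was 0.87 on log2(FPKM + 1) and 1.91 by limma-voom. CXCL8 met the filter only through the SLCDS libraries, so its ranges had to lie apart and its place among the 5 is no support for a direction of the list. CCL2 was at 7.30, 8.64 and 7.47 FPKM in SLCDS and 3.89, 3.98 and 3.90 FPKM in control, a log2 fold change of 0.83. BCL3, a nuclear IkB-like protein gene (log2 fold change 0.58), and the mitochondrial dismutase gene SOD2 (0.53) also rose.

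In the other direction, the cytokine gene IL6 fell to 8.73, 9.79 and 8.59 FPKM in SLCDS, against 17.3, 16.9 and 19.6 FPKM in control (log2 fold change -0.92, SE 0.09; limma, adjusted p = 0.00155). Apart from CXCL8, where the filter fixed it, SLCDS and control ranges lay apart in the other genes that passed as well. Without control replicate 3, 11 of the 15 genes were higher and 1 lower, where 16% and 11.8% of all genes tested were higher and lower. Calls were lost for CXCL8 without SLCDS replicates 1, 2 and 3 and control replicate 1 (adjusted p 0.0825, 0.0824, 0.0618 and 0.056) and for SOD2 without SLCDS replicates 1 and 2 (0.0526 and 0.0501) and once the trend over length and GC content was taken out (0.0951). For BCL3 the adjusted p was 0.173, 0.151 and 0.145 without SLCDS replicates 1, 2 and 3 and 0.111 and 0.117 without control replicates 1 and 2, and 0.0545 with no filter and 0.0538 at a mean FPKM of at least 5.

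**Figure D5:**
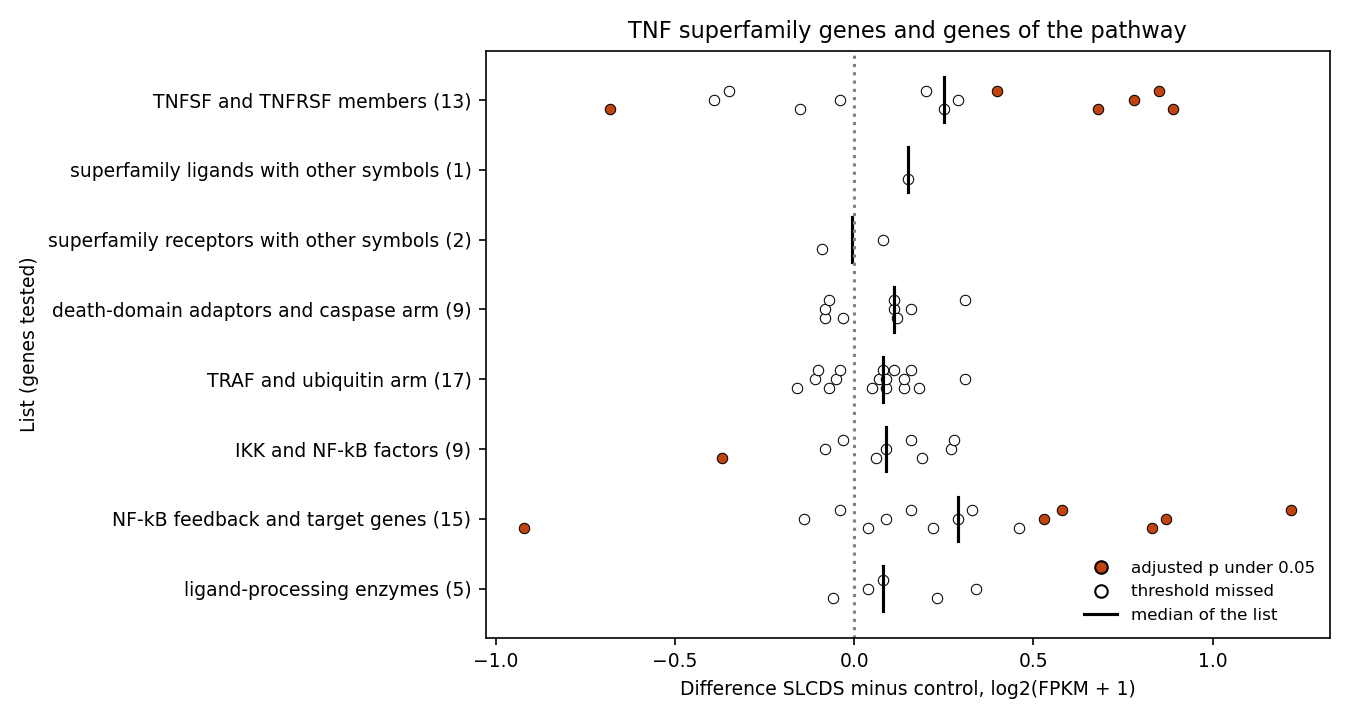
Difference SLCDS minus control on the log2(FPKM + 1) scale for each tested gene of the TNF superfamily (top row) and of the 7 pathway lists, filled where the adjusted p was under 0.05, with a bar at the median of each list and the number of genes tested in brackets. Filled points occur among the TNFSF and TNFRSF genes (5 to the right and 1 to the left), among the NF-kB targets (5 and 1) and once, to the left, among the NF-kB factors.

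Some markers of other cell types moved with these genes. In the endothelial list the only tested gene of 6, CDH5, rose to 4.57, 4.54 and 5.32 FPKM in SLCDS, against 1.70, 1.40 and 2.62 FPKM in control, and the other 5 lay under 1 FPKM in every library. The summed level of this list was 4.96 to 5.88 FPKM in SLCDS and 2.12 to 3.00 FPKM in control. In the fibroblast and pericyte list 2 of 4 tested genes rose, ACTA2 and PDGFRB, against 4.28% of all genes tested. PDGFRB met the filter only through the SLCDS libraries. COL1A2 and RGS5 did not pass (log2 fold change -0.04 and 0.07). Under the filter, COL1A1 was lower, at 0.462, 0.663 and 0.65 FPKM in SLCDS against 0.881, 0.976 and 1.16 FPKM in control. LUM was higher, at up to 0.156 FPKM. The summed level was 372 to 380 FPKM in SLCDS and 367 to 399 FPKM in control, most of it COL1A2 (361 to 394 FPKM). The myeloid list had 0 of 2 tested genes passing in limma (1 at an unadjusted p under 0.05 and 0 by limma-voom), with a summed level of 4.81 to 6.09 FPKM in SLCDS and 4.23 to 4.75 FPKM in control. The higher sum came from CD68, which averaged 4.053 FPKM in SLCDS and 2.785 FPKM in control. The other tested gene, CD14, was lower without overlap, averaging 0.881 FPKM in SLCDS and 1.19 FPKM in control. Under the filter, CSF1R and ITGAM (at most 0.0778 FPKM) were also lower without overlap, while AIF1, TYROBP and CX3CR1 overlapped. The neuron list had 0 of 4 passing in limma (1 at an unadjusted p under 0.05 and 0 by limma-voom), with 74.8 to 77 FPKM in SLCDS and 82.3 to 89.1 FPKM in control. All 4 neuron genes passed once control replicate 3 was left out, where 27.7% of all genes tested did. Of the neuron genes 2 were higher (SYP, which met the filter only through the SLCDS libraries, and NEFL) and 2 lower (TUBB3 and MAP2). With the trend over length and GC content taken out 2 passed, against 17.4% of all genes. Of the neuron genes under the filter, SYN1 was at 0.796, 0.865 and 0.998 FPKM in SLCDS and 0.516, 0.613 and 0.459 FPKM in control. STMN2 was at 0.059, 0.18 and 0.174 FPKM in SLCDS and 0 in each control. Both lay apart and higher in SLCDS, as did 11.9% of genes under the filter, while DCX and RBFOX3 overlapped. Of the glioma and astroglial list 1 of 8 rose (OLIG2) and 2 fell (GFAP and GJA1), against 4.28% and 1.82% of all genes tested, with 2412 to 2499 FPKM in SLCDS and 2544 to 2945 FPKM in control. With control replicate 3 left out, 3 of the 8 passed as higher and 4 as lower, against 16% and 11.8% of all genes tested. With the trend taken out 7 passed, against 17.4% of all genes. The part of any such shift in the TNF superfamily values was not tested.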

How the data were processed

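Total RNA was extracted with TRIzol and sequenced from VAHTS Universal V6 libraries, per the labels' protocols. The authors deposited 1 file of FPKM values for each of the 6 libraries; the sources used here do not name aligner, counting tool or annotation. GRCm38 and mm10, both mouse builds, stand in the submitters' processing notes although labels and symbols are human, so coordinates are printed only for RefSeq promoters (GRCh38.p14; 18 of 28 genes matched).

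Depth came from the steps between FPKM values: 99.8% of 15906 genes gave whole fragments within 0.001. Absolute depth rests on 544 genes with 1 annotated transcript, 259 of which lay within a window of 5%. No nonzero value was identical between libraries, and none were merged. Groups came from the sample titles.

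Values were tested as log2(FPKM + 1), which understates the change of low genes, with limma 3.58.1 in R 4.3.3 (variance prior following the mean, 2-sided, Benjamini-Hochberg over the 11506 genes with at least 1 FPKM in 3 or more libraries). Transcript length and GC content came from GENCODE release 29, for 98% of tested genes. Other settings were 2 pseudocounts (0.1 and 0.5), 2 filters, 3 scalings, 2 priors, a replicate block and each library left out in turn. Removal of each library's length and GC trend and limma-voom on the recovered fragments were chosen after the data were seen. Intervals of fragment ratios and floors cover counting error only. The procedure was tested on simulated data whose noise was set without control replicate 3 and held no outlying library. That test therefore does not cover the effect of this library. The genes and the 13 lists (7 of the pathway, 6 of cell type markers) were chosen with earlier results of these data known. Named were all TNFSF and TNFRSF genes and, of each pathway list, up to 6 called genes by size of change or, with fewer than 2 called, also the 2 most abundant; 1 gene that this rule names is not reported here, and other exceptions are stated. Python 3.11.15 with pandas 2.3.3, scipy 1.17.1 and matplotlib 3.10.9 served the other steps.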

Additional observations from a re-analysis of the deposited data

How the results depend on the processing

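The number of genes called moved most with control replicate 3. Over all genes tested, 701 passed with all libraries, 492 higher and 209 lower, against a range over single left-out libraries of 276 to 3191 (higher 210 to 1838, lower 66 to 1353), the highest without control replicate 3. The count was 324 (196 higher, 128 lower) at a mean FPKM of at least 5, 1959 (1170 and 789) after removal of the length and GC trend, and 705 by limma-voom; with quantile normalization 325 were lower. Of the TNFSF and TNFRSF genes 6 passed with all libraries and 1 to 9 with a library left out (1 to 7 higher, 0 to 2 lower); the count was 1 without any of the SLCDS libraries, when TNFRSF21 alone passed, and 3 without control replicate 1 or 2. At a mean FPKM of at least 5, where TNFRSF14 is not tested, 3 were higher. All 6 passed by limma-voom, with adjusted p values of 0.00292 to 0.0458, and once the length and GC trend was removed (4.14e-05 to 0.00238). Of the pathway genes 7 passed, and 3 to 25 with a library left out (2 to 23 higher, 1 to 2 lower), 4 (2 higher) at a mean FPKM of at least 5, and 13 (11 higher) with the trend removed; 1 was lower with the same FPKM sum, the same upper quartile or the replicate block. The cause was not tested.

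For same-numbered libraries, the correlations of their deviations from the group means were -0.33, 0.36 and 0.07 for numbers 1 to 3. SLCDS replicate 1 correlated best with control replicate 3 (0.36), and SLCDS replicate 2 with control replicate 1 (0.37). Deviations within a group cancel out, so these values are tied to each other and cannot settle whether the numbers mark pairs. With the replicate block 455 genes passed, 109 of them lower, and 3 TNFSF and TNFRSF genes were higher; the adjusted p was 0.0675 for TNFRSF10B, 0.0708 for TNFRSF14, 0.0969 for MAP3K14 and 0.062 for BCL3.

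Directions changed for genes near 0 that had not passed. Over the left-out libraries the log2 fold change ran from -0.11 to 0.07 for TNFRSF1A, -0.30 to 0.06 for TNFSF12, -0.02 to 0.33 for CD70, -0.18 to 0.04 for LTBR, -0.20 to 0.15 for TRADD, -0.12 to 0.05 for RBCK1, -0.22 to 0.06 for SHARPIN, -0.06 to 0.03 for RELA and -0.01 to 0.12 for ADAM17. With the trend removed it was 0.02 for TNFRSF1A and 0.00 for TRADD and RBCK1, and with the same FPKM sum 0.00 for RELA. Depth limits the genes under the filter, many of which had fewer than 10 fragments in a library.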
